A study of Gallus gallus with 18 samples.

Results

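The transcripts of 29 proteasome genes were followed in the liver of broiler chickens whose feed held insect meal, made from black soldier fly larvae (Hermetia illucens, HI). The genes were taken by symbol from the platform annotation (PSMA to PSMG followed by a number), and each was represented by its brightest probe set with a single symbol. They are 29 of the 11528 genes measured in this way. They comprise 11 core subunits (6 PSMA, 5 PSMB), 15 regulator genes (2 PSMC, 11 PSMD, PSME4 and PSMF1) and 3 assembly chaperones (PSMG). All 29 matched a gene identifier in the RefSeq table of assembly GRCg7b, which lists 39 such symbols. The other 10 symbols, among them the catalytic PSMB5, the activators PSME1 and PSME3, and PSMC5, were not analysed here.

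The proteasome is the main protease of the cytosol and nucleus and degrades proteins that carry ubiquitin chains. Its core particle is a barrel in which rings of alpha subunits (PSMA genes) gate the entry and rings of beta subunits (PSMB genes) hold the catalytic sites. A regulatory particle binds the barrel. It has a base with ATPases (PSMC genes), which unfold the substrate, and a lid of non-ATPase subunits. The PSMD genes encode the lid subunits, non-ATPase parts of the base such as PSMD2, and chaperones of the base such as PSMD5. Some of their products bind or remove ubiquitin. The PSMG chaperones build the alpha rings. In liver the proteasome handles short-lived enzymes and regulators and misfolded proteins of the endoplasmic reticulum, and work in human and mouse cells shows its genes to be raised together by the transcription factor NFE2L1. The roles below are those known from human, mouse and yeast orthologues.

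The 18 liver arrays fall into 3 diets of 6 samples, all from male Cobb broilers that were fed from the first day of life for 35 d. HI0 held no insect meal, HI7.5 held 7.5% (75 g per kg) and HI15 held 15% (150 g per kg) of partially defatted larvae meal, which replaced part of the soybean oil, the wheat and the soybean extraction meal. All diets were balanced with synthetic amino acids. The labels give 72 birds in cages of 4, and a group size of n = 12 that does not add up to 72 over 3 diets and whose unit is not stated. The labels do not tie a sample to a cage or state that each array is a separate bird, so the p-values rest on the spread among samples. Values are log2 signals, which compare 1 probe set between samples and do not rank genes against each other. The liver label was checked with 12 of 13 listed hepatocyte markers, whose mean signal was 12.77 to 12.95 in every sample. ALB, the albumin gene, lay between 14.41 and 14.54, and CPS1 was the dimmest at 5.78 to 6.91.

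One liver stood apart. In HI0 replicate 5 all 29 genes were below their own mean over 18 samples, against 55.6% of all genes, and 13 had their lowest signal of the series there. The mean of the 29 genes, set relative to the HI0 mean, was -0.164 in that sample and -0.001 or higher in the other 5 HI0 samples. HI7.5 replicate 6 came closest to it, with 27 genes below their own mean. At the other end, HI7.5 replicate 5 had 25 genes above or at their own mean and held the highest signal of the series for 8. Both low samples also had the narrowest signal distributions of all arrays, with interquartile ranges of 2.16 and 2.22. The main counts and medians of the 29 genes and the described genes' differences from HI0 are therefore given with and without HI0 replicate 5. That sample was picked by the low signal of these same genes, so leaving it out had to raise the HI0 mean. The direction of the resulting change is therefore no result. Its size is that for a sample picked as the lowest, and not for one picked without regard to these genes.

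**Figure D1:**
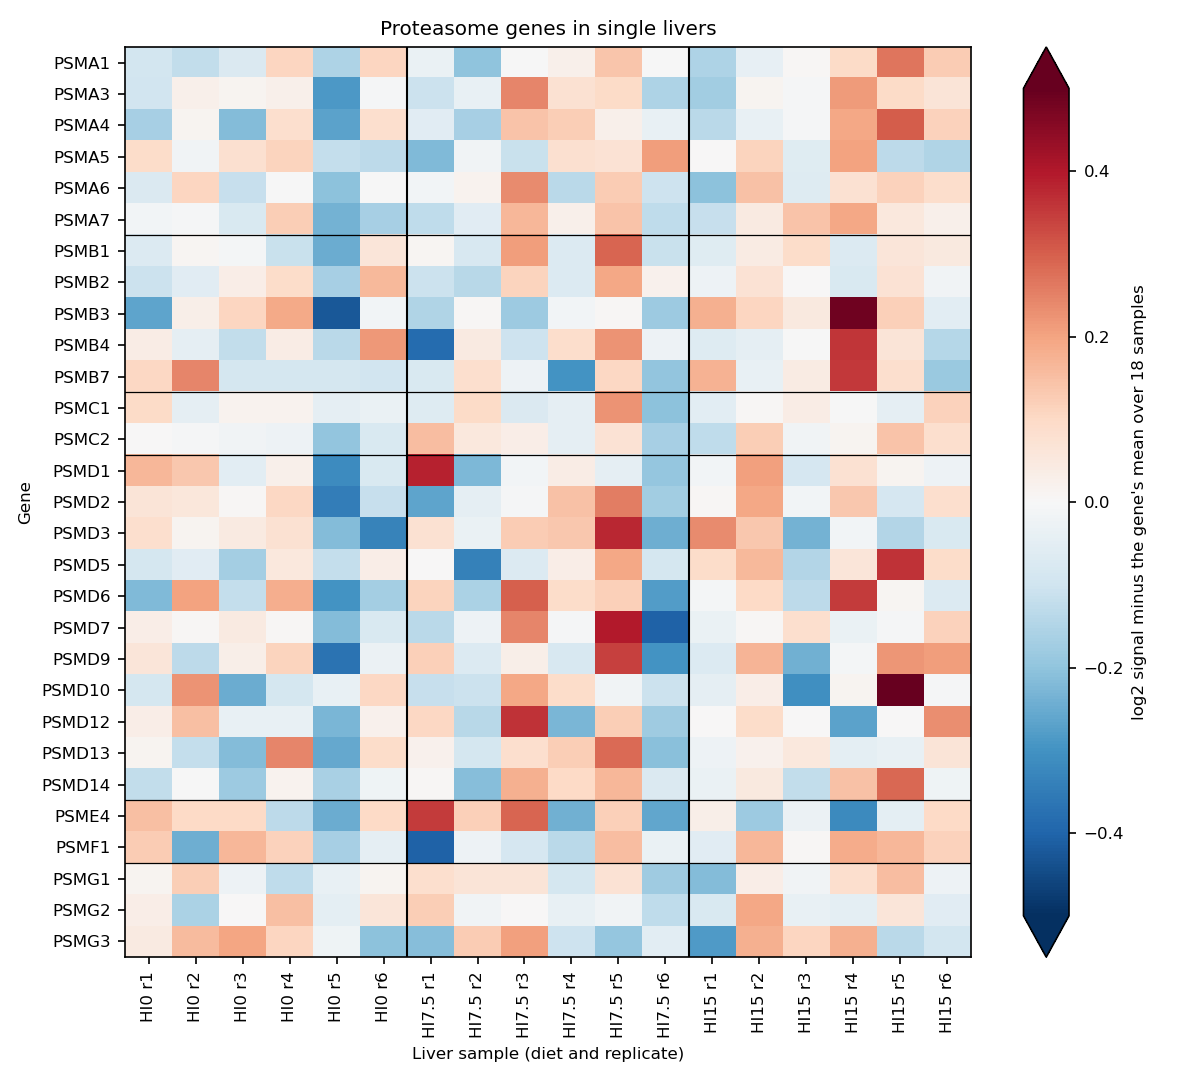
Signal of each of the 29 genes (rows, ordered by class) in each of the 18 livers (columns, ordered by diet), as log2 signal minus the gene's own mean over the 18 samples, with colours saturating at 0.5 in either direction. The column of HI0 replicate 5 is blue in all 29 rows, and no diet forms a block of one colour.

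The comparison of HI15 with HI0 asks what the higher inclusion level did to these transcripts. No proteasome gene passed the test. Estimates were small and mostly positive, with 25 of 29 genes higher and 4 lower in HI15, and a median difference of 0.07 on the log2 scale. Over all genes 51.7% were higher, with a median of 0.005. Among the 6546 genes brighter than the median probe set, where 28 of the 29 lie, 63.1% were higher and the median was 0.03. The PSMD genes were higher in 11 of 11, the beta ring in 5 of 5, the alpha ring in 5 of 6 and the PSMG chaperones in 1 of 3. These counts were 9 of 11, 4 of 5, 5 of 6 and 1 of 3 without HI0 replicate 5. The classes follow the symbol, so the PSMD genes include the base chaperones PSMD5, PSMD9 and PSMD10, all higher in HI15. In limma's test 0 of 29 had an adjusted p under 0.05, and 0% of all 18226 probe sets were called. At an unadjusted p under 0.05 stood 573 probe sets and 0 of 29 proteasome genes, beside 1.26% of all genes higher and 1.49% lower. The smallest adjusted p of a proteasome gene was 0.999, and that of any probe set was 0.892.

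The differences were smaller than the spread between livers. The mean of the 29 genes was 0.06 ± 0.06 (SD, n = 6) in HI15 and 0.00 ± 0.09 (SD, n = 6) in HI0, both relative to the HI0 mean. HI15 samples ran from -0.013 to 0.118 and HI0 samples from -0.164 to 0.078, so the diets overlapped. The pooled SD between samples of a diet was 0.083, larger than the difference. This SD describes single livers and is not the standard error of a difference between diet means. Without HI0 replicate 5 the median difference fell from 0.07 to 0.04, the count of higher genes from 25 to 21, and the HI0 mean became 0.033. In no gene were all samples of one diet above all of the other (0 of 29, against 0.0954% of all genes). The data bound the differences well, since the 95% confidence intervals of all 29 genes lay within 1.5-fold (93.4% of all genes did). Those of 28 lay within 1.3-fold, as did those of 7473 of all 11528 genes and 4924 of the 6546 brighter genes. The widest limits were 0.798-fold for PSME4 and 1.35-fold for PSMB3. The signal of PSMB7 lay below every array median, so its interval may not bound a difference in transcript.

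**Figure D2:**
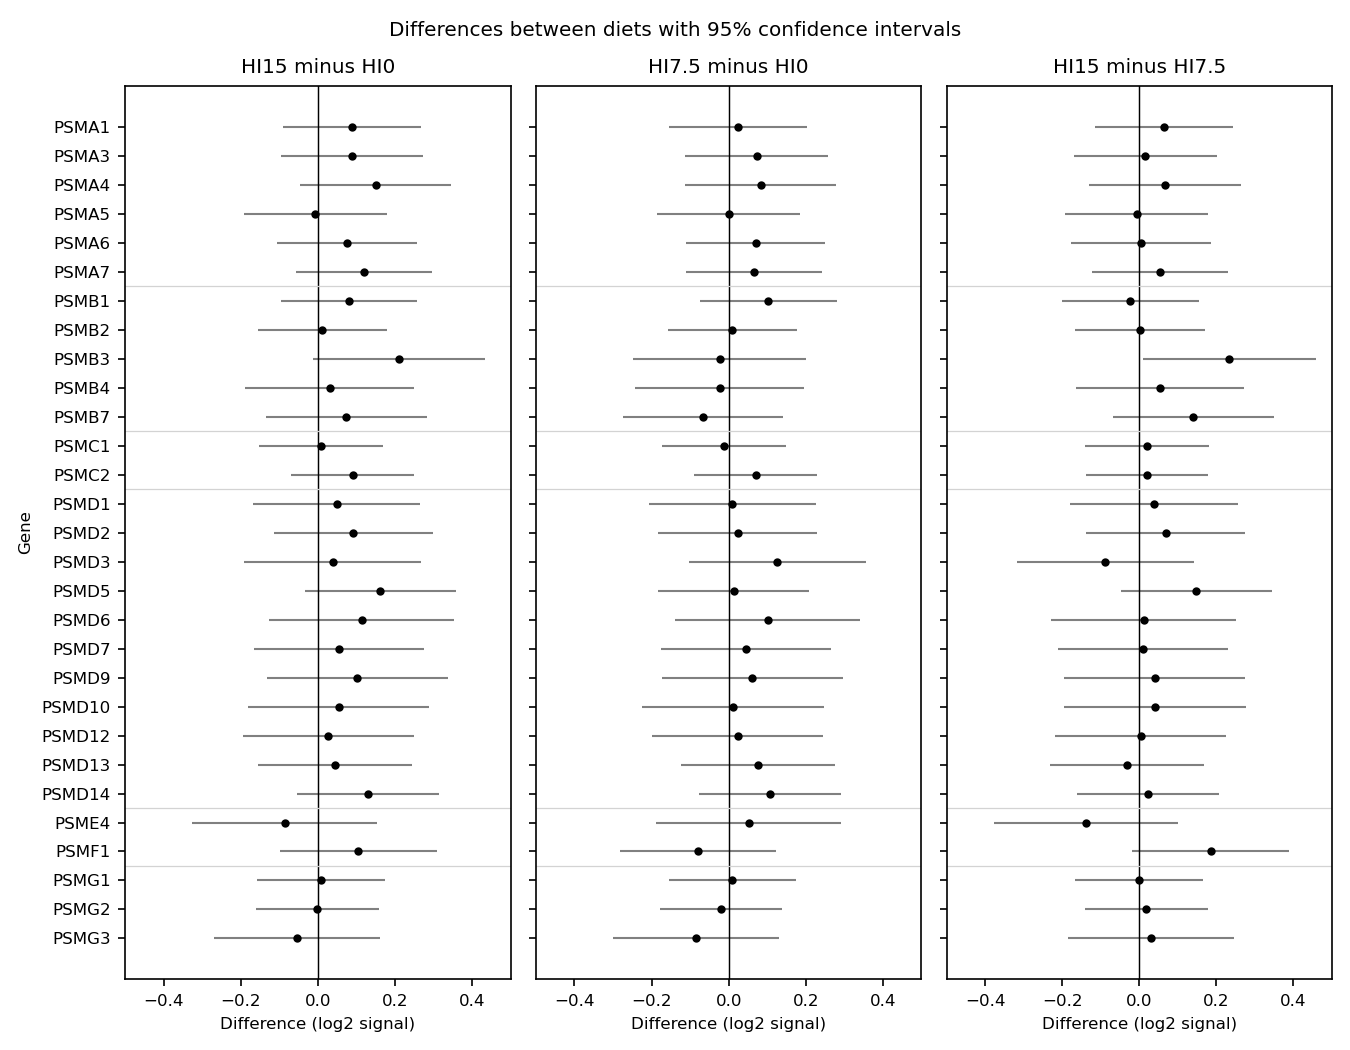
Difference in log2 signal between diets for each of the 29 genes (points) with the 95% confidence interval of the limma fit (bars), for HI15 minus HI0, HI7.5 minus HI0 and HI15 minus HI7.5. In HI15 minus HI0, 25 of 29 points lie right of 0 and all intervals include 0. In HI15 minus HI7.5, PSMB3 alone has an interval that excludes 0.

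HI7.5 against HI0 gives the effect of the lower level and shares the HI0 samples with the comparison above, so both carry the low signal of HI0 replicate 5. In HI7.5, 21 of 29 genes were higher, 7 lower and PSMA5 was at 0, with a median of 0.02 (all genes 49.9% higher, median 0.00). Of the brighter genes 61.3% were higher. The 11 PSMD genes were again all above 0, with a median of 0.045, but this count rests on single livers. It was 7 of 11 without HI0 replicate 5 (median 0.0087) and also 7 of 11 without HI7.5 replicate 5 (median 0.013). In the full set 2 of 5 beta subunits and 1 of 3 PSMG chaperones were above 0. Limma called 0 of 29 genes and 0% of probe sets. At an unadjusted p under 0.05 there were 565 probe sets and 0 of 29 members (0.954% of all genes higher, 1.69% lower). No member's groups were free of overlap (0 of 29, against 0.0867% of all genes). The intervals of all 29 genes lay within 1.3-fold, as did those of 7643 of all 11528 genes and 4958 of the 6546 brighter genes. Without HI0 replicate 5 the count above 0 fell to 15 and the median to 0.0013, and without HI7.5 replicate 5 to 14 and -0.004.

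HI15 against HI7.5 compares both levels of meal without the HI0 samples. Here 23 of 29 genes were higher in HI15 and 6 lower, with a median of 0.02 (all genes 51.1% higher, median 0.0033). Limma called 0 of 29 genes and 0% of probe sets, with 576 probe sets at an unadjusted p under 0.05. PSMB3 was the 1 member of 29 under that threshold, beside 1.61% of all genes higher and 0.946% lower. Groups overlapped in every member (0 of 29 without overlap, against 0.0607% of all genes). Without HI7.5 replicate 6, the low liver of that diet, 15 of 29 were higher and the median was 0.0013. The slope over all 3 diets was above 0 in 25 of 29 genes (51.7% of all genes), with a median of 0.05 per 10 percentage points of meal. With evenly spaced levels and groups of equal size, the HI7.5 samples do not enter this estimate. The count therefore repeats that of HI15 against HI0 and is no separate result. Neither the slope nor the F test among diets called a probe set (0% each), and 592 and 523 probe sets had an unadjusted p under 0.05, with 0 of 29 members in each.

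PSMB3, a structural subunit of the beta ring, had the largest differences of the set in HI15, against either other diet, and the smallest F test p (0.0808, adjusted p = 1.0 in limma). Its signal (probe set 15481356) ran from 8.78 to 9.39 in HI0 (median 9.21), from 9.02 to 9.21 in HI7.5 (median 9.12) and from 9.15 to 9.69 in HI15 (median 9.315). All 6 HI15 samples were above the HI0 mean, yet only HI15 replicate 4 was above the highest HI0 sample, and HI15 overlapped HI7.5 as well. HI15 was higher than HI7.5 by 0.23 ± 0.11 (SE, n = 6 and 6) and than HI0 by 0.21 ± 0.11, each with an adjusted p of 0.999 in limma. Without HI15 replicate 4 the latter was 0.14, and without HI0 replicate 5 it was also 0.14.

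The second beta subunit named, PSMB1, likewise has no catalytic site. It lay between 8.80 and 9.11 in HI0 (median 9.01), 8.94 and 9.34 in HI7.5 (median 9.02) and 8.98 and 9.14 in HI15 (median 9.095). The HI7.5 value was 0.10 ± 0.08 above HI0 (SE; limma adjusted p = 0.999), and 2 HI7.5 samples, replicates 3 and 5, lay above all others. It was 0.07 without HI0 replicate 5. Of the remaining beta genes, PSMB7, which carries the trypsin-like site, was the dimmest probe set, and its HI15 minus HI0 difference was 0.07. PSMB2 and PSMB4 differed by 0.01 and 0.03. With HI0 replicate 5 left out PSMB7 was at 0.06, PSMB2 at -0.02 and PSMB4 at 0.00.

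In the alpha ring PSMA4 had both the largest difference and the smallest F test p (0.3). It ran from 9.82 to 10.17 in HI0 (median 10.01), from 9.92 to 10.23 in HI7.5 (median 10.08) and from 9.95 to 10.39 in HI15 (median 10.14). The ranges of the 3 diets overlapped, and 5 of 6 HI15 samples were above the HI0 mean. HI15 replicates 4 (10.28), 5 (10.39) and 6 (10.20) lay above the highest HI0 sample. HI15 minus HI0 was 0.15 ± 0.09 (SE; limma adjusted p = 0.999), or 0.11 without HI0 replicate 5. PSMA1, PSMA3, PSMA6 and PSMA7 had differences of 0.075 to 0.12, and PSMA5 one of -0.01. The first 4 ran from 0.042 to 0.0853, and PSMA5 was at -0.03, without HI0 replicate 5.

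**Figure D3:**
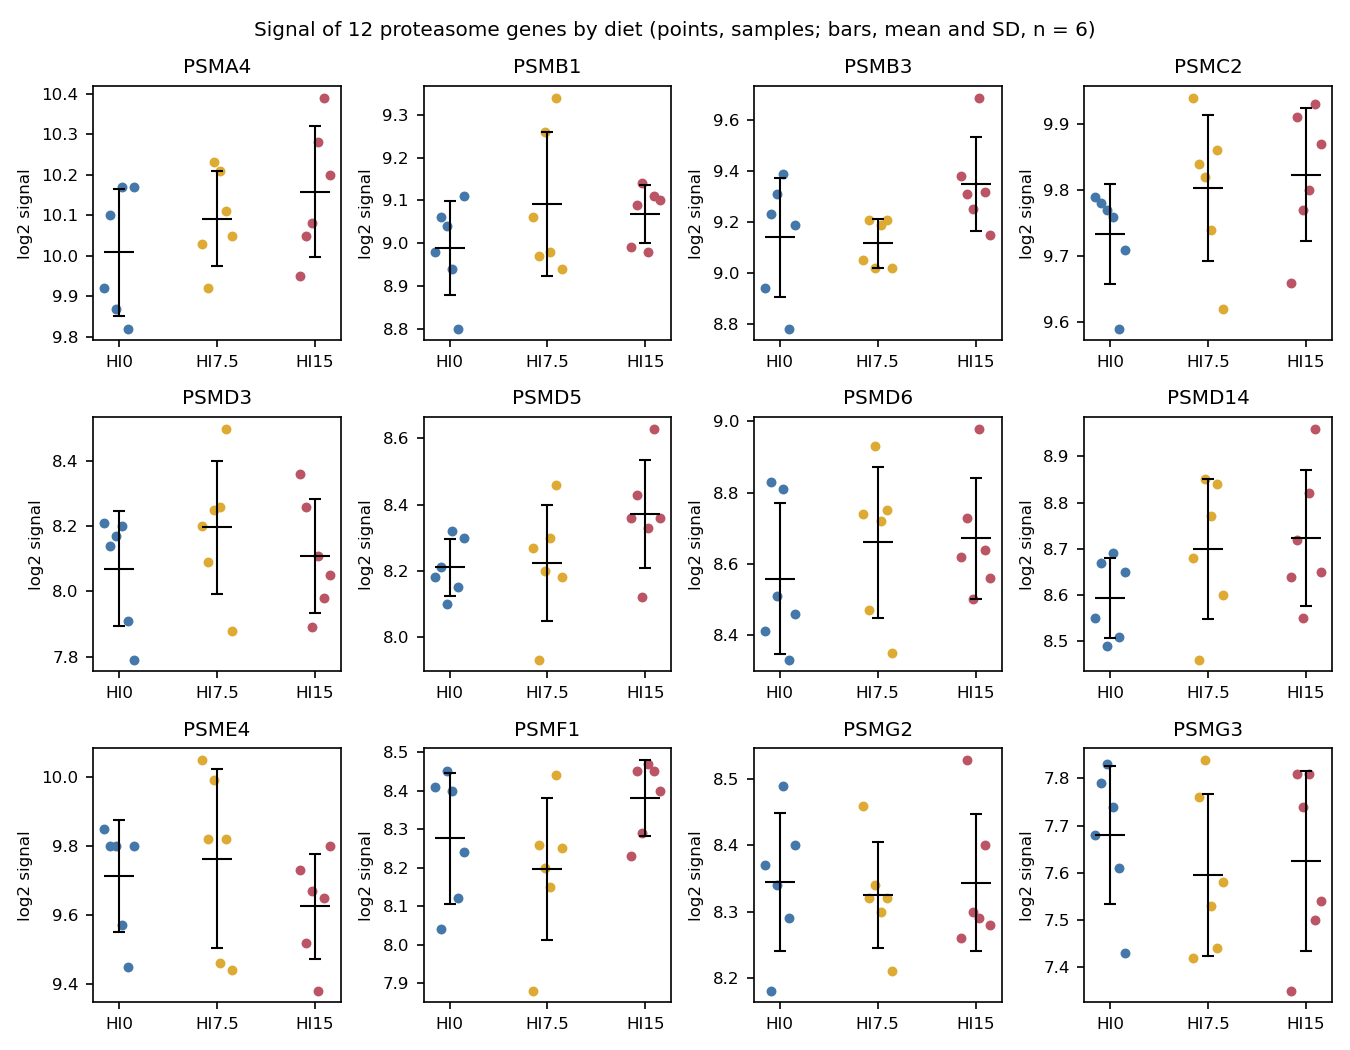
Log2 signal of 12 proteasome genes in the 6 samples of each diet (points), with the mean and SD (bars, n = 6), each panel on its own vertical scale. Diets overlap in all 12 panels, and HI15 replicate 4 sets the top of the PSMB3 range at 9.69.

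The ATPases of the base were among the steadiest of the set. PSMC2, one of the motor subunits, ran from 9.59 to 9.79 in HI0 (median 9.765), from 9.62 to 9.94 in HI7.5 (median 9.83) and from 9.66 to 9.93 in HI15 (median 9.835). Its SD within diets was 0.097, the lowest of the 29 together with PSMG2. HI15 minus HI0 was 0.09 ± 0.08 (SE; limma adjusted p = 0.999), and 5 of 6 samples of either meal diet were above the HI0 mean. PSMC1 differed by 0.01. PSMC2 was at 0.06 and PSMC1 at -0.00 without HI0 replicate 5.

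Among the PSMD genes, PSMD5, a chaperone that helps to build the ATPase base, had the largest difference. Its signal was 8.10 to 8.32 in HI0 (median 8.195), 7.93 to 8.46 in HI7.5 (median 8.235) and 8.12 to 8.63 in HI15 (median 8.36). Of the HI15 samples 5 lay above every HI0 sample and replicate 3 lay among them. HI15 minus HI0 was 0.16 ± 0.09 (SE; limma adjusted p = 0.999), and 0.15 without HI0 replicate 5. The other chaperones of the base with a PSMD symbol, PSMD9 and PSMD10, differed by 0.10 and 0.05, or by 0.04 and 0.05 without HI0 replicate 5.

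PSMD14 is the lid enzyme that cuts ubiquitin chains off the substrate. It lay between 8.49 and 8.69 in HI0 (median 8.60), 8.46 and 8.85 in HI7.5 (median 8.725) and 8.55 and 8.96 in HI15 (median 8.685). In each meal diet 5 of 6 samples were above the HI0 mean and the ranges overlapped. The difference from HI0 was 0.13 ± 0.09 in HI15 (SE) and 0.11 ± 0.09 in HI7.5, both with an adjusted p of 0.999 in limma. These were 0.11 and 0.09 without HI0 replicate 5.

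The lid subunits PSMD6 and PSMD3 were more scattered. PSMD6 had the widest SD within diets, 0.198, and ran from 8.33 to 8.83 in HI0 (median 8.485), from 8.35 to 8.93 in HI7.5 (median 8.73) and from 8.50 to 8.98 in HI15 (median 8.63). Its HI15 minus HI0 difference was 0.11 ± 0.12 (SE; limma adjusted p = 0.999). PSMD3 went from 7.79 to 8.21 in HI0 (median 8.155), from 7.88 to 8.50 in HI7.5 (median 8.225) and from 7.89 to 8.36 in HI15 (median 8.08). It was the lid gene with the lowest estimate for HI15 minus HI7.5, at -0.09 ± 0.11 (SE; limma adjusted p = 0.999), and it was 0.13 ± 0.11 above HI0 in HI7.5 (adjusted p = 0.999). Without HI0 replicate 5 PSMD3 was 0.09 above HI0 in HI7.5, and PSMD6 0.07 above HI0 in HI15.

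PSMD2, a scaffold of the base that receives ubiquitin-binding shuttle proteins, is the only member with more than 1 probe set. The brighter one (15546839) ran from 8.97 to 9.42 in HI0 (median 9.345), from 9.05 to 9.57 in HI7.5 (median 9.29) and from 9.23 to 9.51 in HI15 (median 9.36). The other (15553871) ran from 7.82 to 8.10, from 7.78 to 8.18 and from 7.79 to 8.18. Both placed HI15 above HI0, by 0.09 ± 0.10 and 0.055 ± 0.09 (SE; limma adjusted p = 0.999 for the first), and their deviations from the diet means correlated at 0.62 over 18 samples. Without HI0 replicate 5 the brighter one was 0.03 above HI0 in HI15. PSMD1, PSMD7, PSMD12 and PSMD13 differed from HI0 in HI15 by 0.03 to 0.055. Without that sample PSMD1 was at -0.01, PSMD12 at -0.02, PSMD7 at 0.02 and PSMD13 at 0.00.

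PSME4 and PSMF1 bind the ends of the core in place of the regulatory particle, the first as an activator and the second described in mammals as an inhibitor. PSME4 ran from 9.45 to 9.85 in HI0 (median 9.80), from 9.44 to 10.05 in HI7.5 (median 9.82) and from 9.38 to 9.80 in HI15 (median 9.66). Its estimates were the lowest of the 29 in HI15, at -0.09 ± 0.11 against HI0 (SE) and -0.14 ± 0.11 against HI7.5, with an adjusted p of 0.999 in limma in both. Against HI0 it was -0.14 without HI0 replicate 5. PSMF1 lay between 8.04 and 8.45 in HI0 (median 8.32), 7.88 and 8.44 in HI7.5 (median 8.225) and 8.23 and 8.47 in HI15 (median 8.425). It was 0.185 ± 0.10 higher in HI15 than in HI7.5 (SE; limma adjusted p = 0.999), where 1 of 6 samples was above the HI0 mean, and -0.08 ± 0.10 in HI7.5 against HI0 (adjusted p = 0.999). This last value was -0.11 without HI0 replicate 5. The diets overlapped for both genes.

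Of the 3 PSMG chaperones, PSMG1 was above 0 against HI0 in both meal diets, and PSMG2 and PSMG3 were below 0. In HI15 against HI7.5, 2 of 3 were above 0 (median 0.02). PSMG3 ran from 7.43 to 7.83 in HI0 (median 7.71), from 7.42 to 7.84 in HI7.5 (median 7.555) and from 7.35 to 7.81 in HI15 (median 7.64). It was -0.055 ± 0.10 in HI15 and -0.085 ± 0.10 in HI7.5 against HI0 (SE; limma adjusted p = 0.999), with nearly equal ranges in the 3 diets. Leaving out HI0 replicate 5 gave -0.07 and -0.10. PSMG2, the partner of PSMG1 in a heterodimer, was the other steadiest gene, from 8.18 to 8.49 in HI0 (median 8.355), 8.21 to 8.46 in HI7.5 (median 8.32) and 8.26 to 8.53 in HI15 (median 8.295). Its HI15 minus HI0 difference was -0.00 ± 0.08 (SE; limma adjusted p = 0.999), and that of PSMG1 was 0.01 (-0.01 and 0.00 without HI0 replicate 5).

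**Figure D4:**
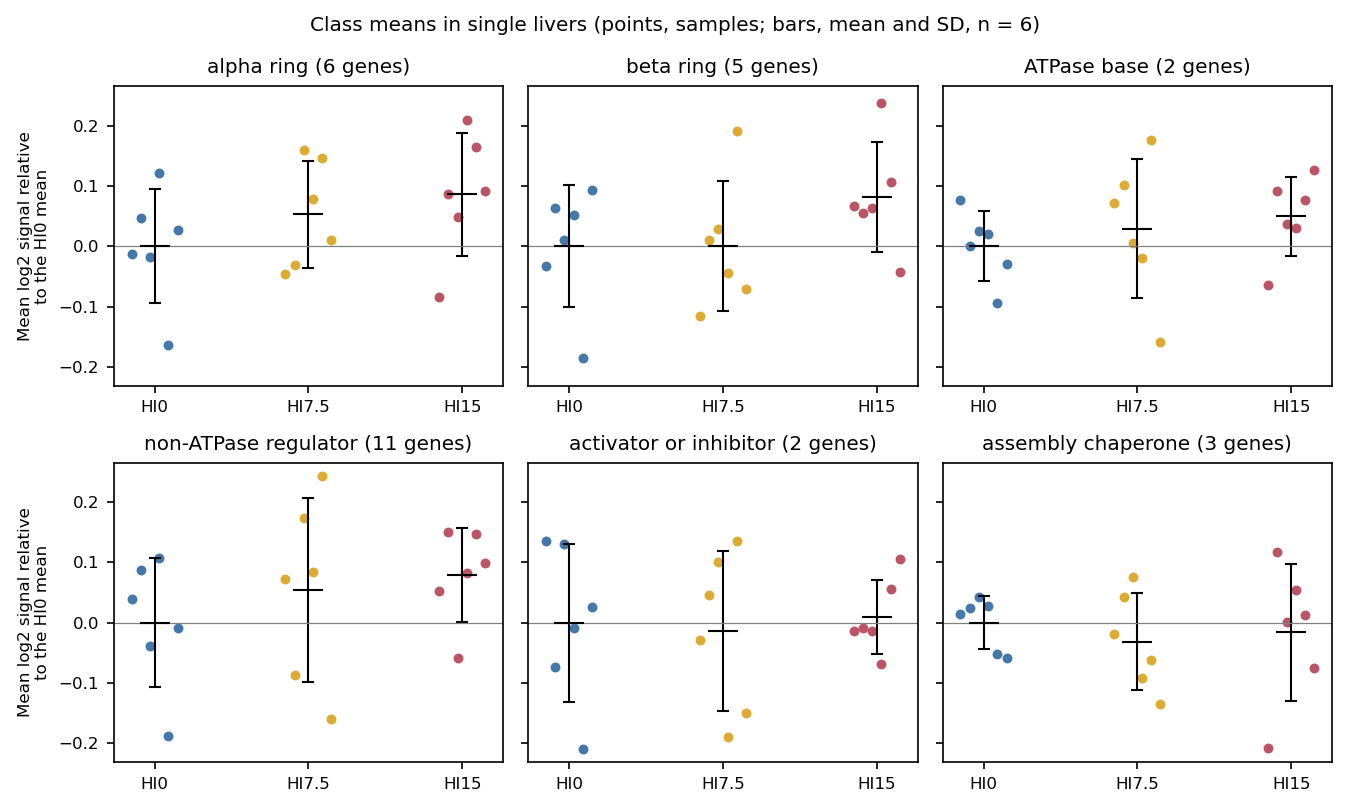
Mean log2 signal of the genes of each class in each liver, relative to the HI0 mean of that class (points; bars, mean and SD, n = 6). HI0 replicate 5 is the lowest HI0 point of the alpha ring, at -0.164, and of the non-ATPase regulators, at -0.188, and the diets overlap in all 6 classes.

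The genes varied together from liver to liver within diets. The 24 PSMA, PSMB, PSMC and PSMD genes are called subunits here, although PSMD5, PSMD9 and PSMD10 are chaperones of the base. After the diet means were removed, 246 of the 276 pairs among the 24 PSMA, PSMB, PSMC and PSMD genes (89.1%) correlated above 0 over the 18 samples, with a median r of 0.35. Over all pairs of the 11528 genes 50.1% were above 0 (median 0.00), and over pairs of the brighter genes 61.4% (median 0.11). These points share arrays, scaling and level, so the values are descriptions. Alpha subunits had a median r of 0.54 among themselves, PSMD genes 0.42, beta subunits 0.30 and PSMG chaperones 0.19. The tightest pairs were PSMD5 with PSMD14 (0.84), PSMA1 with PSMA4 (0.83) and PSMA4 with PSMD14 (0.82). Without HI0 replicate 5 the median over the 276 pairs was 0.27 and 83.7% of them were above 0, against 49.9% of all gene pairs.

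Set against the mean of the other subunits, PSMA3 followed most closely (r = 0.80), then PSMD14 (0.75), PSMA7 and PSMD9 (both 0.74). At the low end were PSMA5 (0.07), PSMG3 (0.12), PSME4 (0.25) and PSMB7 (0.26). The signal of PSMB7 lay below every array median, so its r may not describe the transcript. Of the 29 genes 16 had r above 0.5, which is 55.2%, against 16.3% of all genes. No pair of the genes is adjacent among the protein-coding genes of GRCg7b, and the nearest, PSMD5 and PSMB7, have 27 genes between them. The members also scattered little within diets, with a median SD of 0.151 that only 19.2% of all genes undercut (median of all genes 0.207). Neither this SD nor the share of 55.2% was compared with genes of like level. The genes whose deviations were most like the subunit mean over the 18 samples were TARSL2 (r = 0.90), a threonyl-tRNA synthetase-like gene, U2AF1 and PRPF19, both of splicing (0.89 each), and TM9SF4 (0.89). CCNDBP1, MRPL47 and ELAC2 (0.88 each) and INTS1 (0.87) followed. ATP1B4 (-0.92), PRLL (-0.90) and NINJ2 (-0.89) ran most opposite. All of these are extremes picked from the whole array. The most alike also correlated with the array interquartile range, at 0.52 (ELAC2) to 0.88 (INTS1), and the most opposite at -0.68 to -0.81. With that range removed, their r with the subunits was 0.66 to 0.86 and -0.77 to -0.8.

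Array breadth moved with the proteasome mean. The interquartile range of all log2 signals of an array ran from 2.16 to 2.51 in HI0, from 2.22 to 2.67 in HI7.5 and from 2.34 to 2.57 in HI15. Across the 18 livers it correlated with the mean of the subunits at r = 0.76 (Spearman's rho 0.76), and at 0.67 (rho 0.69) without HI0 replicate 5 and HI7.5 replicate 3, the samples farthest in breadth. Within diets r was 0.81 in HI0, 0.86 in HI7.5 and 0.31 in HI15, over 6 samples each. Of the 29 genes 27 correlated positively with breadth, against 57.0% of all genes, and PSMA5 (-0.43) and PSMG3 (-0.15) did not. However, 28 of the 29 lie above the median level, and no such share was taken for the brighter genes alone. The contrast with all genes is thus not matched for level.

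With breadth as a covariate, which was added after it was seen to move with the genes, the HI15 minus HI0 median was 0.03 with 20 of 29 genes above 0. For HI7.5 minus HI0 it was -0.01 with 11 of 29, and for HI15 minus HI7.5 it was 0.02 with 23 of 29. The covariation persisted in part, since 73.9% of the 276 pairs were above 0 with breadth removed and the median r was 0.19. Over all gene pairs 50.2% were then above 0 (median 0.00), and pairs of the brighter genes were not taken in this setting. However, only 7 of the 29 genes then had r above 0.5 with the other subunits, against 16 before. Their median r fell from 0.54 to 0.37, and the share of all genes with r above 0.5 was not taken with breadth removed. PSMA5 then followed the other subunits at r = 0.74, against 0.07 before, PSMD2 at 0.81, and PSMD12 at -0.27, against 0.40 before. Within classes the median r with breadth removed was 0.37 for alpha subunits, 0.27 for beta subunits, 0.18 for PSMD genes and 0.09 for PSMG chaperones. The PSMD genes thus fell below the beta subunits. What sets the breadth of an array was not tested.

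**Figure D5:**
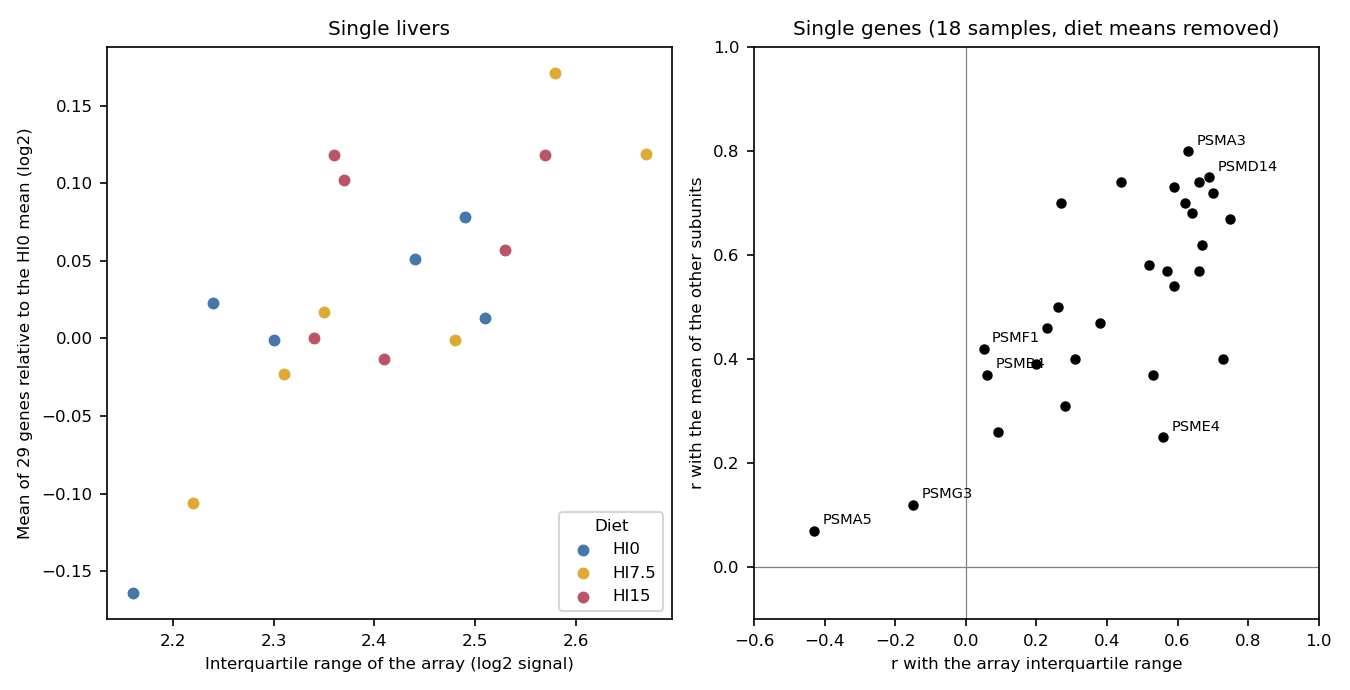
Left, mean of the 29 genes in each liver relative to the HI0 mean (log2) against the interquartile range of that array's log2 signals, coloured by diet; the lowest point, HI0 replicate 5, is at 2.16 and -0.164. Right, for each of the 29 genes, its r with the mean of the other subunits against its r with the interquartile range over 18 samples, where PSMA5 and PSMG3 lie left of 0.

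Markers of other liver cells were read beside these values, because in bulk tissue fewer cells of a type and less RNA per cell cannot be told apart. Over the 18 samples with diet means removed, the mean of 5 of 9 macrophage markers correlated with the subunits at 0.45, that of 7 of 9 stellate cell and fibroblast markers at -0.47 and that of 3 of 9 erythroid markers at 0.20. Stellate markers ran from 8.30 to 8.99 in HI0, 8.14 to 8.81 in HI7.5 and 8.45 to 9.21 in HI15. Erythroid markers ran from 8.37 to 9.12, 8.38 to 9.55 and 8.12 to 10.47 in the same order, and macrophage markers from 10.06 to 11.05, 9.86 to 10.82 and 10.08 to 10.57. Summarised over the list, erythroid markers differed from HI0 by 0.45 in HI15 and 0.51 in HI7.5, more than the proteasome medians of 0.07 and 0.02. The stellate list was at 0.20 and -0.06, and the macrophage list at 0.04 and 0.12. HI15 minus HI7.5 was 0.05, 0.29 and -0.10 for the erythroid, stellate and macrophage lists. No list was tested. Muscle markers (3 of 5) correlated with the subunits at -0.44 and pancreas markers (2 of 5) at -0.52, and all samples had mean signals of 5.80 to 6.46 and 5.62 to 6.11 for these lists. For cholangiocyte, endothelial, T and B lymphocyte markers r was -0.29, 0.08, -0.18 and -0.02. The 12 hepatocyte markers correlated with the subunits at 0.35. All these r values are given without removal of array breadth, which itself moved with the subunits. The part of the marker lists in the proteasome values was not tested.

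Genes around the proteasome gave no call in any comparison (limma, 0 called in each list). For HI15 against HI0, 10 of 18 E2 ubiquitin-conjugating enzymes were higher (median 0.01), 9 of 14 deubiquitinases, ligases and shuttle factors that bind the proteasome (median 0.04), 8 of 10 genes of the p97 unfoldase and its cofactors (median 0.03), and 14 of 28 autophagy genes (median 0.00). In HI7.5 against HI0, 13 of the 14 proteasome-bound factors were higher, with a median of 0.05. So were 13 of 18 E2 enzymes, 8 of 10 p97 genes and 18 of 28 autophagy genes. The counts were 5 of 9 for the NFE2L1 pathway and 1 of 4 for ubiquitin and E1 genes. Class I antigen processing, which trims and loads proteasome products, was higher in 7 of 14 genes in HI15 and 3 of 14 in HI7.5 against HI0. Of the 4 ubiquitin and E1 genes measured 2 were higher in HI15 than in HI0, as were 5 of 9 genes of the NFE2L1 pathway and PAAF1, a chaperone of the regulatory particle (0.03 ± 0.09, SE). For HI15 against HI7.5 the counts were 7 of 18 E2 enzymes, 3 of 14 proteasome-bound factors, 7 of 10 p97 genes, 11 of 28 autophagy genes and 12 of 14 class I genes. Over all genes 51.7% were higher in HI15 against HI0, 49.9% in HI7.5 against HI0 and 51.1% in HI15 against HI7.5. Of the brighter genes these shares were 63.1%, 61.3% and 51.3%. The list counts are given with all samples only, so those against HI0 include the low HI0 replicate 5.

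Few of the 96 genes on these lists had an unadjusted p under 0.05. In each comparison 1 (1.04%) was higher and in HI15 against HI7.5 1 was lower, shares near or below those of all genes given above, so they are read as no result about the lists. UBE2E3, an E2 enzyme, was 0.19 ± 0.08 higher in HI15 than in HI0 (SE; limma adjusted p = 0.999), while UBE2D3 was -0.19 ± 0.08 in HI15 against HI7.5 (adjusted p = 0.999). NFE2L2, a relative of NFE2L1 that responds to oxidative stress, ran from 7.34 to 7.63 in HI0, 7.04 to 7.46 in HI7.5 and 7.28 to 7.65 in HI15. It was 0.23 ± 0.09 higher in HI15 than in HI7.5 (SE; limma adjusted p = 0.999), and its r with the subunits was 0.18. ATG2A, an autophagy gene, was 0.23 ± 0.11 higher in HI7.5 than in HI0 (SE; limma adjusted p = 0.999). DDI2, the protease that activates NFE2L1, followed the subunits at 0.78, and USP14, a deubiquitinase of the base, at 0.61. With array breadth removed USP14 was at 0.4. The median r over the measured genes of the NFE2L1 pathway was 0.34, which did not set this list apart. The median was 0.59 for p97 genes, 0.45 for autophagy, 0.43 for E2 enzymes and 0.38 for class I genes. For proteasome-bound factors it was 0.35, and for ubiquitin and E1 genes 0.22. Over all genes it was 0.11. The list medians and the r of DDI2 are given without removal of array breadth, which moved with the subunits, and were not matched for level. SQSTM1, the autophagy receptor for ubiquitinated cargo, did not follow the subunits (0.02, and -0.3 with breadth removed). Its HI15 minus HI0 difference was -0.19 ± 0.14 (SE).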

How the data were processed

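Liver RNA of 18 samples was hybridised to single-colour Affymetrix arrays. The authors deposited log2 signals. According to the submitters' processing notes, RMA was run in Affymetrix Expression Console 1.4. This step evens out the arrays, which reduces differences in brightness before any test. Some differences remained in the deposited values, where array medians ran from 7.23 to 7.31 and interquartile ranges from 2.16 to 2.67. The values cover 18226 probe sets to 2 decimals, without detection calls, so none was left out as dim. Of these, 12300 have 1 gene symbol in the platform annotation, 256 have several (1 of them a proteasome probe set, left out) and 5670 are unnamed here.

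All probe sets were fitted with 1 mean per diet over 18 arrays in limma 3.58.1 under R 4.3.3, with a slope per 10 percentage points of meal and an F test. The two-sided p-values were Benjamini-Hochberg adjusted across the whole table, and 0.05 was the call threshold. The fit was tested on simulated data. The number of arrays limits the precision.

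The genes, the gene lists and the marker lists were chosen with earlier results of these data known, so lists are given by counts and medians. Genes given in full were, in each class, those with the smallest F test p or the largest HI15 difference, those with the 2 smallest p in each direction of each comparison, those of extreme spread, and those with several probe sets. Genes like the subunits were ranked by Pearson's r over 18 samples with diet means removed. Listed neighbours were named by their p, except DDI2, USP14 and SQSTM1, which were chosen after their values were seen. Alternatives were other scalings, filters, priors, weights, covariates and probe sets, and leaving out each sample. Replicate numbers follow accession order. In all 18 samples they coincide with the run of 6 that the last number of the title falls in. What those title numbers stand for is not stated, so the fit has no term for them. The other running numbers in the titles follow diet order without mixing, and their meaning is not stated either. Any effect tied to that order cannot be told apart from diet. No sequences were used here.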

Additional observations from a re-analysis of the deposited data

Results flagged for a closer look

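The mean of the 29 proteasome genes was lower in HI0 replicate 5 than in the rest of its diet. Its value was -0.164 relative to the HI0 mean and the next lowest HI0 sample was at -0.001, a gap of 0.673 of the diet's range, above Dixon's 95% critical value for 6 samples. This was 1 flag among 105 groups tested, and chance flags about 1 in 20 groups. None of the 87 groups of single genes was flagged. The same array had the narrowest signal distribution of the series, with an interquartile range of 2.16. The part of that breadth in the low value was not tested.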

How the results depend on the processing

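No probe set and no proteasome gene was called in any comparison under any alternative run (limma), while 523 to 592 probe sets had an unadjusted p under 0.05 in the tests as reported. Leaving out 1 sample at a time moved the HI15 minus HI0 median between 0.0387 (without HI0 replicate 5) and 0.082, with 21 to 27 genes above 0. It moved the HI7.5 minus HI0 median between -0.004 (without HI7.5 replicate 5) and 0.0553 (without HI7.5 replicate 6), with 14 to 23 genes, and without HI0 replicate 5 to 0.0013. It moved the HI15 minus HI7.5 median between 0.0013 (without HI7.5 replicate 6) and 0.0533 (without HI7.5 replicate 3), with 15 to 26 genes. Medians of this size lie below the SD of 0.083 between samples. That SD describes single livers and is not the standard error of a difference between diet means.

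Quantile normalization gave HI15 minus HI0 a median of 0.0465 with 22 genes above 0, and HI7.5 minus HI0 0.0019 with 15. With the interquartile range of each array as a covariate, added after seeing the data, 11 genes were above 0 in HI7.5 against HI0. With only the 24 PSMA to PSMD genes, also added later, the HI15 minus HI0 median was 0.0775. PSMD2 changed sign in HI7.5 against HI0, from 0.02 to -0.0119 under quantile normalization, to -0.001 with the array covariate and over a range of -0.038 to 0.0733 without single samples. The cause was not tested. A block for the run of 6 title numbers (each run holds 1 sample of each diet) cannot change the estimates or their signs. It lowered the probe sets with an unadjusted p under 0.05 from 573 to 472 in HI15 against HI0, from 565 to 491 in HI7.5 against HI0 and from 576 to 526 in HI15 against HI7.5, with 0 called in each.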
